A study of Mus musculus with 18 samples.

Results

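Adipokines are proteins that fat releases into the blood or onto its neighbours. The 10 adipokine genes described here were taken by their symbols from the 55487 genes counted in each library: Adipoq (adiponectin), Lep (leptin), Retn (resistin), Cfd (adipsin, or complement factor D), Rbp4 (retinol-binding protein 4), Nampt (visfatin), Apln (apelin), Sfrp5 (secreted frizzled-related protein 5), Rarres2 (chemerin) and Metrnl (meteorin-like). All 10 passed the filter on low counts in every comparison. Bulk RNA was sequenced from subcutaneous white adipose tissue (sWAT) of 12-week-old male mice, 4 Ctrl and 4 Csn8AKO, and from brown adipose tissue (BAT) of 4-week-old male mice, 5 Ctrl and 5 Csn8AKO, giving 18 libraries of 1 mouse each. Both genotypes carried floxed Csn8 alleles (Csn8 f/f), were fed chow and were fasted for 4 h. Csn8AKO mice in addition carried Cre recombinase under the adiponectin promoter, which deletes exons 4 to 6 of Csn8, a subunit of the COP9 signalosome, wherever that promoter is active, so in white and brown adipocytes alike. Since the tissues came from mice of different ages, tissue and age cannot be told apart in any comparison between them.

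Adiponectin, leptin, resistin and adipsin are made mostly by fat cells in the mouse. Adiponectin is built from collagen-like trimers that are assembled in the endoplasmic reticulum and it raises insulin sensitivity in liver and muscle. Leptin follows the fat stored in white adipocytes and signals satiety to the brain, and brown fat is known to make little of it. The other proteins are made by several tissues and reach cells through carriers, receptors or enzymes that are named below with their values.

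Adipoq (ENSMUSG00000022878) lies on the plus strand of chromosome 16 from 23146536 to 23158028 in GRCm38, and a promoter of this gene drives Cre here. Lep (ENSMUSG00000059201) lies on the plus strand of chromosome 6 from 29060220 to 29073877. Retn (ENSMUSG00000012705) is on the plus strand of chromosome 8 from 3655770 to 3660110, and Sfrp5 (ENSMUSG00000018822) on the minus strand of chromosome 19 from 42197971 to 42202252. Of the other members, Cfd (ENSMUSG00000061780) lies at chr10:79890853-79892655, Rbp4 (ENSMUSG00000024990) at chr19:38116629-38125281, Nampt (ENSMUSG00000020572) at chr12:32819545-32853349, Apln (ENSMUSG00000037010) at chrX:48025146-48034853, Rarres2 (ENSMUSG00000009281) at chr6:48569696-48572789 and Metrnl (ENSMUSG00000039208) at chr11:121701544-121716306, and all 10 are annotated as protein coding. The sequences below run from 250 bases before to 50 bases after the transcription start in RefSeq on GRCm38.p6, 5′ to 3′ on the strand of the gene. They are shown because Adipoq is the gene whose promoter directs the deletion, Lep is the member that varied most between BAT libraries, and Retn and Sfrp5 are the members whose change differed between the tissues. Capitals mark TATAAA, the TATA box, or TTNNGNAA, a loose form of the palindrome bound by C/EBP proteins, on either strand, with N for any base.
Adipoq, chr16:23146286-23146585, plus strand: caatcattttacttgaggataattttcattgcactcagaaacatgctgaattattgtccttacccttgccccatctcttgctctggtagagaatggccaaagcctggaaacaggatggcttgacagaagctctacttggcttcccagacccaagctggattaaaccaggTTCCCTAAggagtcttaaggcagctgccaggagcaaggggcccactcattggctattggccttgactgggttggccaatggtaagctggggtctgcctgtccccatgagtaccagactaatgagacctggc
Lep, chr6:29059971-29060270, plus strand: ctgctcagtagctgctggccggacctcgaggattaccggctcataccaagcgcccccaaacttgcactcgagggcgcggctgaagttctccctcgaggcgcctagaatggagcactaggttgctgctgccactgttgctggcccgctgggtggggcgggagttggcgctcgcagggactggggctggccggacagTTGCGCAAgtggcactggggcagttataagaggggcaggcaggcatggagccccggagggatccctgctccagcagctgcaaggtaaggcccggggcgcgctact
Retn, chr8:3655520-3655819, plus strand: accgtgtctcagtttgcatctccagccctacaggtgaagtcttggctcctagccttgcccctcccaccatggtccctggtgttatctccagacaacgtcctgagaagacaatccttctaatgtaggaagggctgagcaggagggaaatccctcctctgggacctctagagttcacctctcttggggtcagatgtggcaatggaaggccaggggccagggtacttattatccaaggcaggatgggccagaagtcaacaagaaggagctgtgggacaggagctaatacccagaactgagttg
Sfrp5, chr19:42202203-42202502, minus strand: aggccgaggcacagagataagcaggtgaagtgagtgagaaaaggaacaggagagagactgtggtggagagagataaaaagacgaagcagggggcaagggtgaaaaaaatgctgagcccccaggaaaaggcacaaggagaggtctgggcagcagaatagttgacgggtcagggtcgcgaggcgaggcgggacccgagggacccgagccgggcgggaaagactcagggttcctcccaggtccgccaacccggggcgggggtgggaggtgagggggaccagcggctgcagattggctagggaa

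RefSeq gave a promoter for 9 members and 2 of them for Rbp4, so that 10 sequences were searched on both strands. TATAAA was found in 1 of the 10, the downstream promoter of Rbp4, against 13.6% of all 32851 promoters. TTNNGNAA was found in 4 of the 10, those of Adipoq and Lep and both of Rbp4, against 40.7% of all promoters. The Lep match begins at position -55 from the start and is a match on both strands, and the Adipoq match begins at position -81 on the minus strand of the window. CCAAT, the CCAAT box, was in 3 of the 10 against 37.4%, with 3 matches in the Adipoq promoter, at positions -34, -27 and -7. GGGCGG, the GC box bound by SP1, was in 6 of the 10 against 35.7%, with 5 matches each in Nampt and Metrnl, 2 each in Sfrp5 and the downstream Rbp4 promoter and 1 each in Lep and Apln. Retn and Cfd held none of the 4 motifs. No match of one motif overlapped a match of another in these 10 sequences, and a match is only a match of letters.

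The targeted gene was examined at the outset. Cops8, the symbol of Csn8 in the annotation, was at 33.9, 36.2, 34.8 and 35.0 CPM, the read count divided by a library size scaled by TMM, in Ctrl sWAT and at 33.0, 29.2, 30.7 and 36.0 CPM in Csn8AKO sWAT (log2 fold change, below log2 change, of -0.12, standard error (SE) 0.11, adjusted p = 0.623). In BAT it was lower in Csn8AKO mice, at 32.1 ± 3.56 CPM (SD, n = 5) against 39.4 ± 3.22 CPM (SD, n = 5) (log2 change -0.30, SE 0.09, adjusted p = 0.0211). The count covers the entire gene and so includes transcripts without exons 4 to 6, and cells other than adipocytes keep the gene. Between 15835721 and 23109603 reads were counted per sWAT library and between 26658593 and 66719937 per BAT library. Depth therefore cannot be told apart from tissue either. Ribosomal RNA took 1.80% to 19.8% of the counts in Ctrl sWAT and 3.96% to 47.8% in Csn8AKO sWAT, where replicates 3 and 4 were the highest, and 0.863% to 15.1% in BAT. Brown adipocyte markers such as Ucp1 summed to 4964 to 8046 CPM in Ctrl BAT and to 114 to 223 CPM in Ctrl sWAT. These CPM are scaled within each tissue, and the gap follows the tissue labels.

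In the fat of Ctrl mice the adipokine genes fell into steps (plot of Ctrl levels by tissue). Per kilobase of exon, Cfd was the highest in Ctrl sWAT at 9119 ± 1405 CPM per kilobase (SD, n = 4), and Adipoq was next at 991 ± 151. Retn, at 250.3 ± 55.5, overlapped with Lep at 165 ± 49.2, and Lep overlapped with Rbp4 at 129 ± 34.4. Rarres2 followed at 52.6 ± 5.36 CPM per kilobase, clear of both neighbours. Nampt at 26.3 ± 4.44 overlapped with Sfrp5 at 19.7 ± 8.73, which in turn overlapped with Metrnl at 12.4 ± 0.976, and Apln was the lowest at 1.44 ± 0.572. Ctrl BAT began with the same pair, Cfd at 1841 ± 534 and Adipoq at 483 ± 12.4 CPM per kilobase (SD, n = 5). After these came Rbp4 at 233 ± 133 and Nampt at 78.2 ± 15.3, which overlapped with each other. Lep at 7.76 ± 8.04, Retn at 7.55 ± 3.30 and Rarres2 at 5.35 ± 1.15 formed an overlapping run in BAT, and Apln at 2.93 ± 0.732 overlapped with Metrnl at 2.53 ± 0.242. Sfrp5 was the lowest in Ctrl BAT, at 0.999 ± 0.157 CPM per kilobase. In Csn8AKO mice Metrnl stood above Nampt in sWAT, at 25.4 ± 6.22 against 11.5 ± 3.05 CPM per kilobase, and Retn stood beside Rbp4 and Nampt in BAT, at 67.5 ± 16.8 against 89.1 ± 71.9 and 36.4 ± 13.3.

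**Figure D1:**
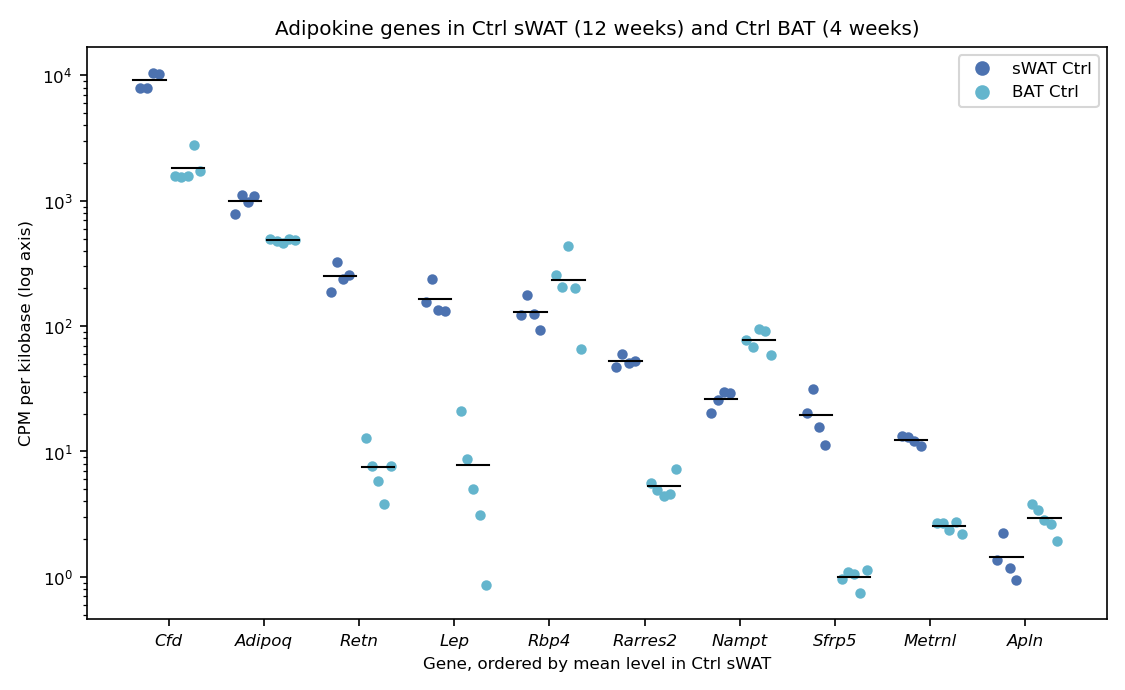
CPM per kilobase of exon on a log axis for the 10 adipokine genes in Ctrl sWAT (4 libraries, 12 weeks) and Ctrl BAT (5 libraries, 4 weeks). Points are libraries and lines are group means, and Retn, Lep and Sfrp5 lie far lower in BAT, whereas Nampt lies higher.

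In a fit of Ctrl BAT against Ctrl sWAT, 9 of the 10 members differed at an adjusted p under 0.05, 7 lower and 2 higher in BAT. Of all 22381 genes tested, 52.7% passed, 27.0% lower and 25.7% higher. The median log2 difference of the members was -2.35, against 0.0063 over all genes. Scaled by library size alone, the median over all genes was -0.19 and the calls were 6719 lower and 3781 higher in place of 6039 and 5748, with the same 9 members called in the same direction. Retn was 34.5-fold lower in Ctrl BAT (log2 difference -5.11, SE 0.34, adjusted p = 1.03e-06), and Lep was 22.2-fold lower (-4.47, SE 0.86, adjusted p = 0.00295). Sfrp5, a decoy that binds WNT ligands, was 20.3-fold lower (log2 difference -4.35), and Rarres2, the ligand of the receptor CMKLR1, was 10.2-fold lower (-3.35). Cfd, Metrnl and Adipoq were lower by log2 differences of -2.36, -2.34 and -1.09. Only Nampt (log2 difference 1.52, SE 0.17, adjusted p = 5.55e-06) and Apln (0.97, SE 0.26, adjusted p = 0.00677) were higher in Ctrl BAT among the members. Nampt makes nicotinamide mononucleotide, the precursor of NAD, and apelin is the ligand of the receptor APLNR. Rbp4, which carries retinol in blood, had a log2 difference of 0.80 (SE 0.47, adjusted p = 0.191). Libraries of the tissues did not overlap for 8 members, all but Rbp4 and Apln, against 45.7% of all genes tested. The Ctrl libraries here are the same as those in the genotype comparisons below.

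In sWAT at 12 weeks, 5 of the 10 members passed an adjusted p under 0.05 between Csn8AKO and Ctrl mice. Cfd, Rbp4, Nampt and Sfrp5 fell and Metrnl rose (plot of changes in both tissues). Of the 18843 genes tested in sWAT, 5.31% passed, 3.00% lower and 2.30% higher. The median log2 change of the members was -0.72, against 0.03 over all genes. Scaled by library size alone, the calls over all genes were 328 lower and 106 higher in place of 566 and 434. A lower level in bulk tissue can come from fewer cells of a type or from less RNA per cell, and these cannot be told apart. Without the Csn8AKO libraries 3 and 4, the highest in ribosomal RNA, which leaves 2 Csn8AKO mice, edgeR called 0 of the 10 members, and 7 had an unadjusted p under 0.05.

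**Figure D2:**
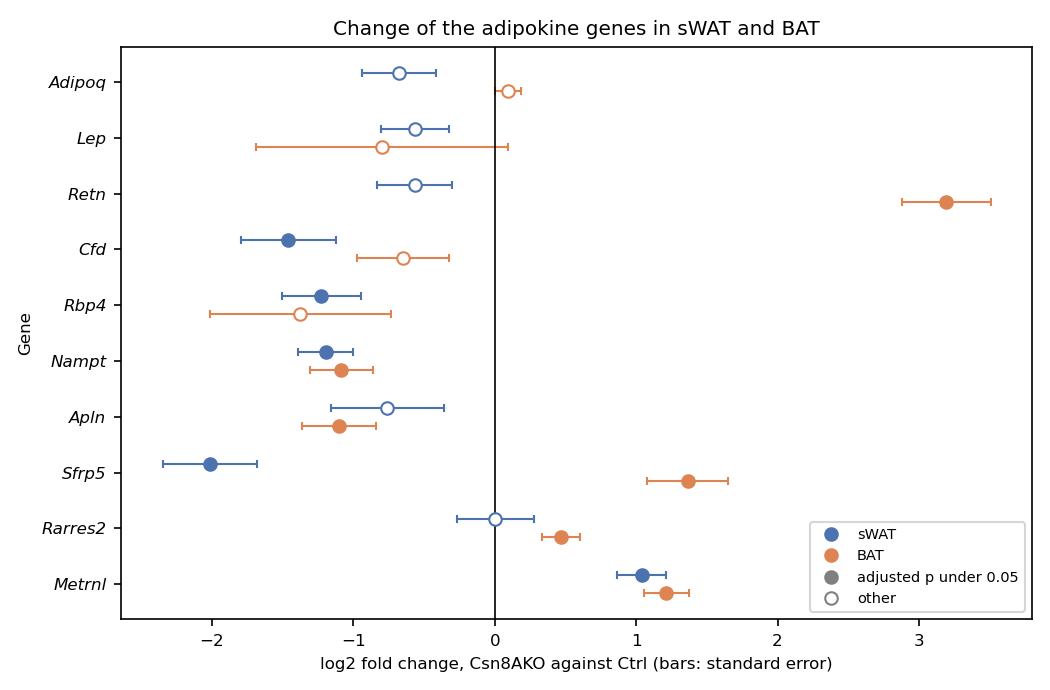
Log2 change of each adipokine gene in Csn8AKO against Ctrl mice in sWAT (4 against 4) and in BAT (5 against 5), with bars for the standard error and filled points for an adjusted p under 0.05. Retn and Sfrp5 lie on opposite sides of zero in the tissues, while Nampt is lower and Metrnl higher in both.

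Sfrp5 had the largest fold among the members called in sWAT. Its levels were 40.9, 60.7, 30.9 and 21.9 CPM in Ctrl mice and 10.9, 5.88, 9.17 and 12.3 CPM in Csn8AKO mice. Every Csn8AKO library was below every Ctrl library, and the gene was 4.05-fold lower (log2 change -2.02, SE 0.33, adjusted p = 0.0107). Without Csn8AKO 3 the value was -2.01 and the adjusted p 0.0502. Among the related genes of resistin, SFRP5 and meteorin-like, Sfrp1, another WNT decoy, went the other way, from 9.70 ± 1.47 to 19.0 ± 5.30 CPM (log2 change 0.97, adjusted p = 0.0386). It was the 1 gene of the 6 tested in the list of those relatives that passed in sWAT.

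Cfd, the protease that starts the alternative complement pathway by cutting factor B, is among the most abundant messages of white fat. It was at 7742, 7391, 9966 and 9638 CPM in Ctrl sWAT and at 2812, 1539, 4041 and 4227 CPM in Csn8AKO sWAT. The groups lay well apart, with a 2.75-fold lower mean (log2 change -1.46, SE 0.34, adjusted p = 0.035). The call was lost without the replicate Csn8AKO 1 (adjusted p = 0.107) or 3 (adjusted p = 0.0840), and without Ctrl 2, 3 or 4 (adjusted p = 0.0764, 0.107 and 0.102). Of the 9 genes tested in the list of the alternative complement pathway, which leaves Cfd out, 3 were called, all higher in Csn8AKO sWAT. These were Masp1, a protease gene of which one product matures adipsin (1.39 ± 0.478 to 9.82 ± 3.11 CPM, log2 change 2.82), C3ar1, the receptor of the C3a fragment (log2 change 1.25), and Cfp, properdin, which stabilises the convertase (log2 change 0.89).

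Rbp4 was at 175, 239, 174 and 129 CPM in Ctrl sWAT and at 112, 43.3, 77.6 and 73.5 CPM in Csn8AKO sWAT. No library of one genotype reached into the other, and Rbp4 was 2.34-fold lower (log2 change -1.23, SE 0.28, adjusted p = 0.035), although the lowest Ctrl and the highest Csn8AKO library lay near each other. The call was lost in the fit of all 4 groups (adjusted p = 0.205) and in 6 of the 8 fits without 1 library, those without any of the Ctrl mice or without Csn8AKO 3 or 4 (adjusted p 0.0507 to 0.107). Stra6l, a receptor of retinol-binding protein related to Stra6, was the 1 gene of the 20 receptors and partners tested in sWAT that passed. It went from 0.278 ± 0.195 to 1.55 ± 0.348 CPM (log2 change 2.44, adjusted p = 0.0463), from a Ctrl level near the floor.

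Nampt was at 109.5, 131, 156 and 153 CPM in Ctrl sWAT and at 78.0, 42.4, 56.4 and 62.9 CPM in Csn8AKO sWAT. Here too the groups did not overlap (2.29-fold lower, log2 change -1.20, SE 0.20, adjusted p = 0.00903). Of the 12 other genes of NAD salvage and use, edgeR called 0 in sWAT, and 6 had an unadjusted p under 0.05. The median log2 change of those 12 was -0.10.

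Metrnl was the 1 member that rose in sWAT. Meteorin-like is released by fat and muscle and is known to act on immune cells of fat. Its levels were 22.5, 20.8, 19.8 and 18.1 CPM in Ctrl mice and 47.5, 30.1, 51.0 and 38.1 CPM in Csn8AKO mice. All Csn8AKO libraries were above all Ctrl libraries (2.05-fold higher, log2 change 1.04, SE 0.17, adjusted p = 0.00951). With scaling by library size alone the value was 0.93 and the adjusted p 0.219.

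Adiponectin, leptin and resistin did not pass the test in sWAT. Adipoq was at 1151, 1564, 1401 and 1529.7 CPM in Ctrl mice and at 1105, 491, 936 and 995 CPM in Csn8AKO mice. The groups did not overlap, but by a narrow gap (log2 change -0.68, SE 0.26, adjusted p = 0.173). Adipoq passed in limma voom with quality weights (adjusted p = 0.0316) and in the fit of all 4 groups (adjusted p = 0.0293). Lep was at 555, 806, 470.2 and 456 CPM in Ctrl sWAT and at 395, 274, 385 and 496 CPM in Csn8AKO sWAT, with Csn8AKO 4 inside the Ctrl range (log2 change -0.56, SE 0.24, adjusted p = 0.224). Retn was at 317, 515, 385 and 411 CPM against 324, 145, 340.1 and 291 CPM, again with overlap (log2 change -0.57, SE 0.27, adjusted p = 0.268). Apln, at 3.06 to 7.19 against 1.45 to 4.94 CPM, rested on 32 to 142 reads per library (log2 change -0.76, SE 0.40, adjusted p = 0.326). Rarres2 had means of 144 ± 11.8 and 145 ± 58.0 CPM (log2 change 0.0047, SE 0.27, adjusted p = 0.995), with 206 CPM in Csn8AKO 1 and 70.5 CPM in Csn8AKO 2. Lrrc61 overlaps Rarres2 on the opposite strand, and since the sources used here do not say whether strand entered the counting, their reads cannot be told apart.

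Csn8AKO 2 was the lowest of the 8 sWAT libraries for 9 members, and for Metrnl it was the lowest of the Csn8AKO libraries. Adipocyte markers such as Plin1, Fabp4 and Cidec summed to 8105 CPM in it, to 14692 to 19023 CPM in the other Csn8AKO libraries and to 20422 to 29385 CPM in Ctrl sWAT, and 7 of those 15 markers were called, all lower (median log2 change -1.07). The same library had the most B and T cell marker RNA, with 1120.1 CPM over 13 genes, against 187 to 246 CPM in the other Csn8AKO libraries and 73.6 to 549 CPM in Ctrl sWAT. Macrophage markers summed to 2269 to 3576 CPM in Csn8AKO and 1262 to 1648 CPM in Ctrl sWAT, with 10 of 15 called, all higher (median log2 change 1.21). Fibroblast and progenitor markers summed to 10017 to 16549 against 9723 to 10904 CPM, with 0 of 10 called by edgeR and 6 at an unadjusted p under 0.05. The part of these cells in the members' values was not tested. Without Csn8AKO 2 the same 5 members were called.

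**Figure D3:**
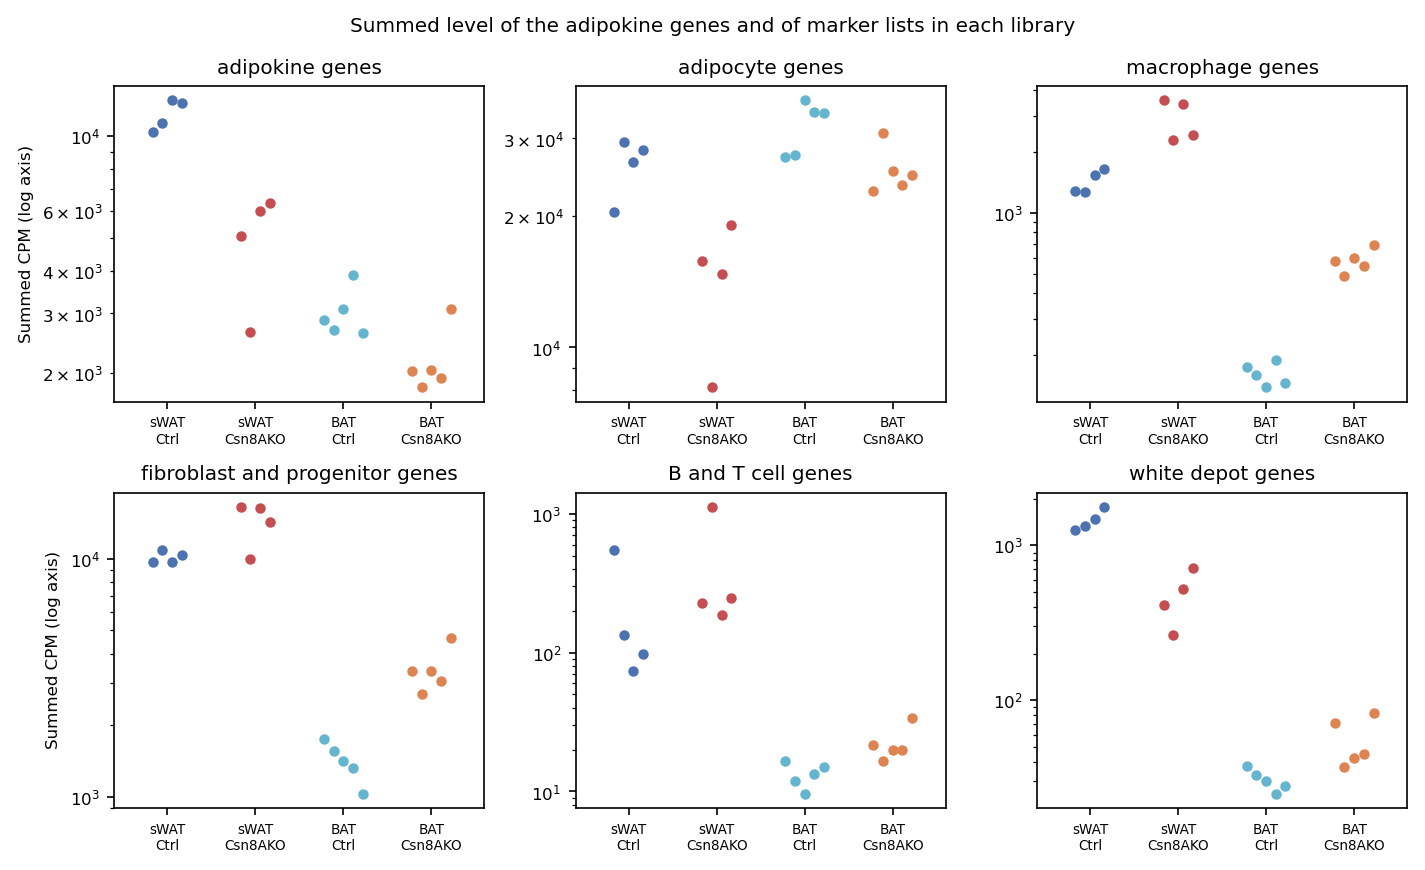
Summed CPM, scaled within each tissue, on log axes of the 10 adipokine genes and of 5 marker lists in each library (points), by tissue and genotype. In sWAT the adipokine sum of 2643 to 6370 CPM in Csn8AKO mice lies below the 10252 to 12745 CPM of Ctrl mice. Beside it are a lower adipocyte sum and a higher macrophage sum, and Csn8AKO 2 is the lowest of the sWAT points in the adipokine and adipocyte panels. Cfd alone had a mean of 8684 CPM in Ctrl and 3155 CPM in Csn8AKO sWAT, the largest part of the adipokine sum.

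In BAT at 4 weeks, 6 of the 10 members passed between the genotypes, 2 lower and 4 higher in Csn8AKO mice. Nampt and Apln fell, whereas Retn, Sfrp5, Rarres2 and Metrnl rose. Of the 22345 genes tested in BAT, 31.9% passed, 15.8% lower and 16.0% higher, a far larger share than in sWAT. BAT also had more mice and more reads per library than sWAT, and their part in this gap was not tested. The median log2 change of the members was -0.28, against 0.0063 over all genes. Scaling by library size alone shifted the median of all genes to 0.14 and the calls from 3536 lower and 3585 higher to 2087 and 4183, and all 6 members were called with unchanged direction. The groups did not overlap for 4 members, Retn, Nampt, Apln and Metrnl, against 21.0% of all genes tested in BAT. In sWAT this held for 6 members, Adipoq, Cfd, Rbp4, Nampt, Sfrp5 and Metrnl, against 14.0%.

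Resistin was the member that moved most. Retn was at 19.3, 11.7, 8.94, 5.87 and 11.7 CPM in Ctrl BAT and at 115, 87.6, 80.1, 93.9 and 147 CPM in Csn8AKO BAT. The lowest Csn8AKO library was several times the highest Ctrl library, and Retn was 9.14-fold higher (log2 change 3.19, SE 0.31, adjusted p = 5.78e-05). Even so its level of 67.5 ± 16.8 CPM per kilobase (SD, n = 5) in Csn8AKO BAT was below the range of Ctrl sWAT, 188 to 322 CPM per kilobase. The gap in change between the tissues was a log2 difference of 3.74 (SE 0.43, adjusted p = 1.90e-04 for the interaction of genotype and tissue over 18 libraries). Of the proteins reported to bind resistin, Cap1 rose from 87.6 ± 1.67 to 108 ± 4.36 CPM (log2 change 0.30, adjusted p = 0.00272), Tlr4 had a log2 change of 0.63 (adjusted p = 0.00294), Dcn, decorin, of 0.92 (adjusted p = 2.90e-05) and Ror1 of 1.20 (adjusted p = 3.84e-04). Retnla, a resistin-like gene of macrophages and fat, rose from 5.31 ± 1.52 to 15.8 ± 3.97 CPM (log2 change 1.57, adjusted p = 1.01e-04).

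Sfrp5, which fell in sWAT, rose in BAT from a low level. It was at 1.76, 2.00, 1.95, 1.37 and 2.09 CPM in Ctrl mice and at 3.96, 1.73, 6.01, 5.01 and 6.88 CPM in Csn8AKO mice. Csn8AKO 2 lay inside the Ctrl range, on 44 reads, and the other Csn8AKO libraries lay above it (2.57-fold higher, log2 change 1.36, SE 0.28, adjusted p = 0.0025). The change differed from that in sWAT by a log2 difference of 3.36 (SE 0.48, adjusted p = 7.33e-04). Retn and Sfrp5 were the 2 members called for the interaction, both with a higher change in BAT, against 2.36% of the 22509 genes tested and 1.61% in that direction. Scaled by library size alone, 39 genes were called lower and 494 higher for the interaction in place of 170 and 362, the median over all genes was 0.21, and both members were called with values of the same sign. For Adipoq the log2 difference was 0.75 (SE 0.26, adjusted p = 0.152, and 0.0252 in limma voom with quality weights), and for Metrnl and Nampt, which changed the same way in both tissues, it was 0.16 (SE 0.24) and 0.10 (SE 0.33). Sfrp1 was also higher in Csn8AKO BAT (log2 change 1.02), as was Metrn, the relative of Metrnl (log2 change 1.16), and 4 of the 5 genes tested in that list were called, all higher.

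Metrnl was at 4.08, 4.08, 3.63, 4.21 and 3.35 CPM in Ctrl BAT and at 6.85, 7.14, 9.04, 10.2 and 11.7 CPM in Csn8AKO BAT. The genotypes were fully apart, with 2.32-fold more in Csn8AKO mice (log2 change 1.21, SE 0.16, adjusted p = 6.61e-05). Rarres2 was at 14.4, 12.6, 11.2, 11.8 and 18.6 CPM against 19.1, 17.6, 21.4, 17.1 and 19.9 CPM. Ctrl 5 reached into the Csn8AKO range, and the rise was 1.38-fold (log2 change 0.47, SE 0.13, adjusted p = 0.0145), which was lost in the fit of all 4 groups (adjusted p = 0.136). Of the chemerin receptors, Cmklr1, the signalling receptor of macrophages and other cells, rose in BAT from 9.81 ± 2.12 to 22.5 ± 4.89 CPM (log2 change 1.20, adjusted p = 1.37e-04) and Ccrl2, which binds chemerin without signalling, rose by a log2 change of 0.51 (adjusted p = 0.0299). Gpr1 had a log2 change of -0.19 (adjusted p = 0.768). In sWAT Cmklr1 was at 279 ± 28.1 and 159 ± 50.7 CPM (log2 change -0.81, adjusted p = 0.0708). Of the 19 receptors and partners tested in BAT 7 were called, all higher (median log2 change 0.22).

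Nampt fell in BAT as it did in sWAT. It was at 376, 332, 461, 450.1 and 288 CPM in Ctrl mice and at 212, 281, 139, 134 and 134 CPM in Csn8AKO mice. The groups met closely at Csn8AKO 2 and Ctrl 5 but did not overlap (2.12-fold lower, log2 change -1.08, SE 0.22, adjusted p = 0.00328). In BAT 7 of the other 12 genes of NAD salvage and use were lower too and 1 was higher (median log2 change -0.40). Nmrk1, which phosphorylates nicotinamide riboside, went from 11.1 ± 0.774 to 5.56 ± 0.820 CPM (log2 change -0.99, adjusted p = 4.99e-05), Sirt3, a mitochondrial NAD-dependent deacetylase, had a log2 change of -0.76 and Parp1, a nuclear NAD consumer, of -0.56. Nnmt, which methylates nicotinamide, rose from 13.6 ± 5.84 to 61.3 ± 17.7 CPM (log2 change 2.16, adjusted p = 7.37e-04).

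Apln was at 11.5, 10.5, 8.58, 8.12 and 5.88 CPM in Ctrl BAT and at 5.57, 1.73, 4.02, 4.38 and 4.85 CPM in Csn8AKO BAT. The groups nearly touched but did not overlap, and Apln was 2.15-fold lower (log2 change -1.10, SE 0.26, adjusted p = 0.00584). Endothelial markers, with which apelin is often found, summed to 985 to 1299.9 CPM in Ctrl and 1074 to 1454 CPM in Csn8AKO BAT, with 4 of 10 called, all higher (median log2 change 0.19). Aplnr, the apelin receptor, had a log2 change of -0.02 (adjusted p = 0.967).

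Adiponectin held a narrow range in brown fat. Adipoq was at 651, 638, 620.1, 664 and 649 CPM in Ctrl mice and at 695, 694, 648, 617 and 781 CPM in Csn8AKO mice. The groups overlapped (log2 change 0.09, SE 0.09, adjusted p = 0.474), and over 18 other fits the value stayed between 0.05 and 0.22. The Cre transgene holds Adipoq sequence of its own, and its part in these reads was not tested. Of the 6 genes listed as lying next to Adipoq, 3 were tested in sWAT, with 1 called higher, and 5 in BAT, with 2 called higher and 1 lower. Eif4a2 was higher in Csn8AKO mice in sWAT (log2 change 0.65, adjusted p = 0.0473) and in BAT (0.75, adjusted p = 9.77e-05), and Kng1, kininogen, rose in BAT from 0.817 ± 0.162 to 5.76 ± 2.83 CPM (log2 change 2.82, adjusted p = 1.70e-05). Fetub was lower in BAT (log2 change -2.42, adjusted p = 0.00112), while Kng2 (-0.34) and Rfc4 (0.14) did not pass there. Of the 11 genes listed for the assembly of adiponectin, Gstk1, known as DsbA-L for its help in multimer formation, was lower in sWAT (28.6 ± 2.84 to 9.09 ± 3.29 CPM, log2 change -1.65, adjusted p = 0.0082) and in BAT (28.4 ± 2.79 to 13.0 ± 1.77 CPM, log2 change -1.13, adjusted p = 4.96e-06). It was the 1 gene of that list called in sWAT, while in BAT P4hb (log2 change 0.67) and Plod2 (0.70) were higher and Pdia6 (-0.31) lower. Adipor1, Adipor2 and Cdh13, the receptors of adiponectin, passed in neither tissue.

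Cfd and Rbp4 had lower means in Csn8AKO BAT without passing the test. Cfd was at 1385, 1370.4, 1399.6, 2486 and 1555 CPM in Ctrl BAT and at 891, 447, 1018, 1002 and 1872 CPM in Csn8AKO BAT, with Csn8AKO 5 inside the Ctrl range (log2 change -0.65, SE 0.32, adjusted p = 0.157). Without Csn8AKO 5 the value was -0.96 (adjusted p = 0.0186). Rbp4 was at 332, 269, 563, 261 and 84.8 CPM against 44.1, 273, 111, 45.0 and 111 CPM. Both genotypes spread widely, Csn8AKO 2 stood with the Ctrl libraries and Ctrl 5 with the Csn8AKO libraries (log2 change -1.37, SE 0.64, adjusted p = 0.142), and without Csn8AKO 2 the value was -1.96 (adjusted p = 0.0361). Stra6l rose in BAT, from 0.0485 ± 0.0486 to 1.05 ± 0.588 CPM (log2 change 4.47, adjusted p = 2.07e-04). Its Ctrl level was near the floor, so the size of that change is uncertain. The other alternative complement genes of BAT were mostly higher, with 5 of 9 called higher and 1, the complement regulator Cr1l, lower (log2 change -0.25, adjusted p = 0.0251). C3 itself rose from 1096 ± 170.0 to 3202 ± 667 CPM (log2 change 1.55, adjusted p = 1.06e-05), Cfp had a log2 change of 1.62 and C3ar1 of 1.90.

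In BAT some marker lists moved with the genotype and others did not. Macrophage markers summed to 488 to 690 CPM in Csn8AKO and 138 to 189 CPM in Ctrl BAT, with 13 of 15 called, all higher, and all 10 fibroblast and progenitor markers were called higher (2698 to 4643 against 1027 to 1748 CPM). White depot markers summed to 37.1 to 82.7 CPM in Csn8AKO and 24.9 to 37.8 CPM in Ctrl BAT. Of the 5 tested, 2 were called, Slc7a10 and Nnat, both higher. Hoxc8 (log2 change 0.07), Hoxa9 (-0.06) and Mest (0.39) did not pass. Nnat alone went from 18.9 ± 4.12 to 36.7 ± 14.7 CPM. In Ctrl sWAT, on the separate scale of that tissue, the white depot markers summed to 1259 to 1774 CPM. Adipocyte markers summed to 22758 to 30868 against 27228 to 36661 CPM, with 7 of 15 called lower and 1 higher. Brown adipocyte markers overlapped, at 4747 to 9955 CPM in Csn8AKO and 4964 to 8046 CPM in Ctrl BAT, with 1 of 11 called lower and 1 higher (median log2 change 0.0064). Erythroid markers overlapped too, at 449 to 710.3 against 515 to 1336 CPM, with 0 of the 5 tested called by edgeR and 0 at an unadjusted p under 0.05. The part of these cells in the members' values was not tested.

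**Figure D4:**
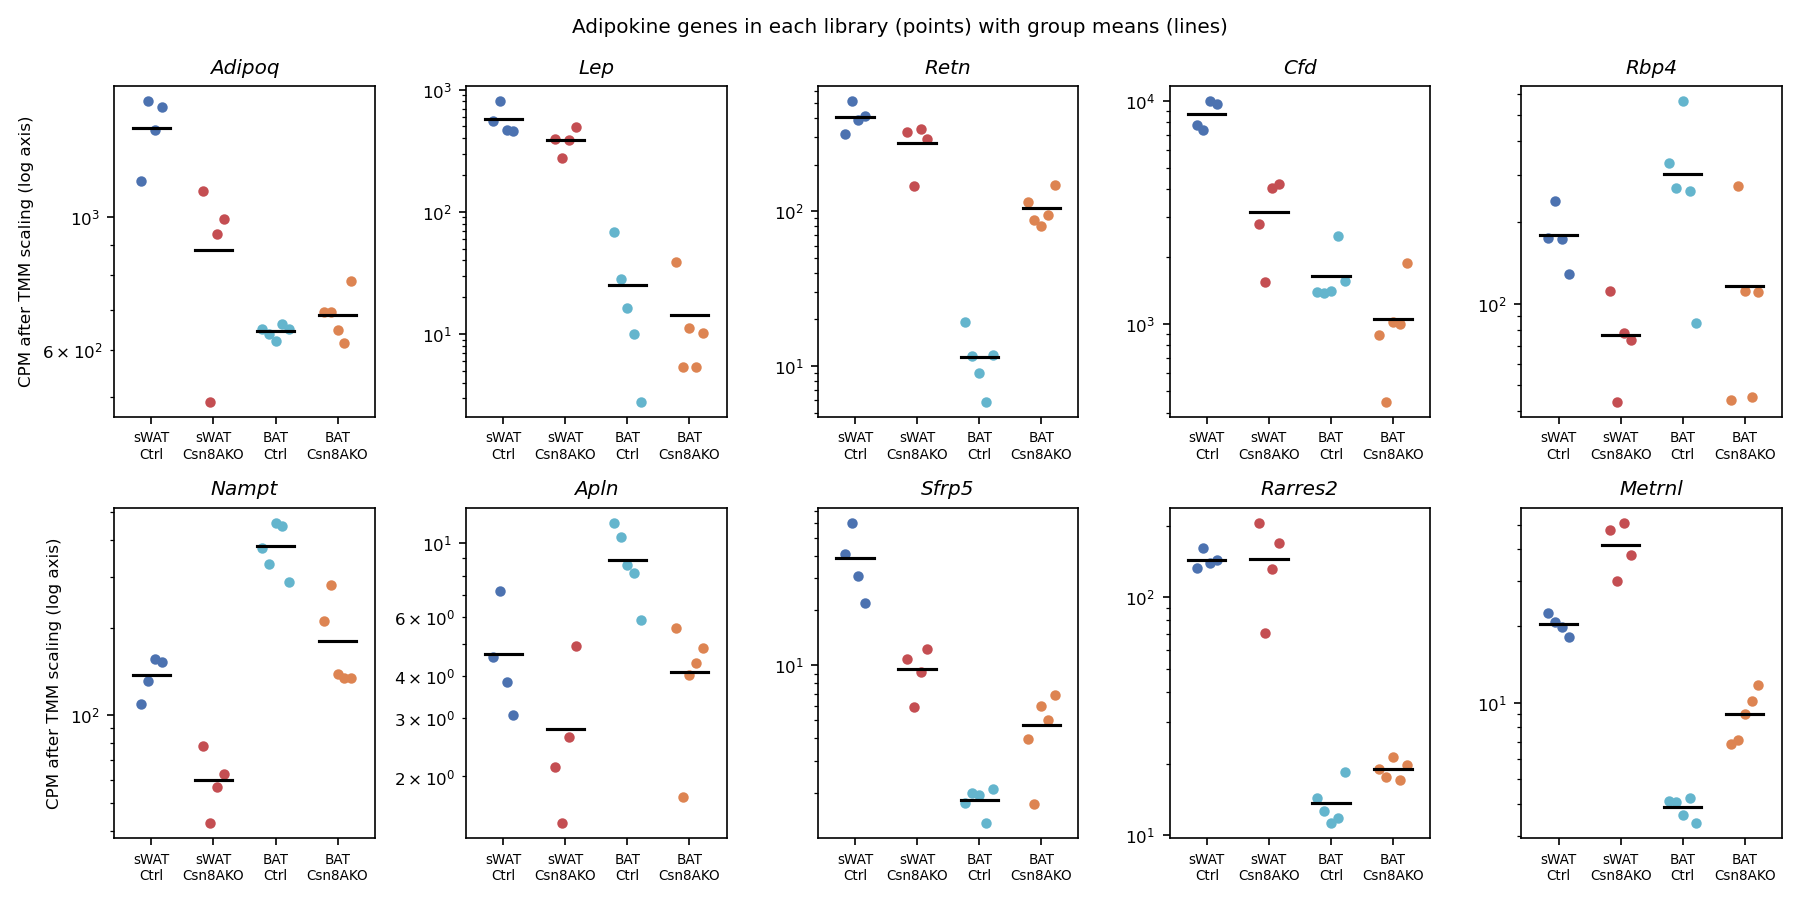
CPM after TMM scaling within each tissue, on log axes, of the 10 adipokine genes in each of the 18 libraries (points), with group means as lines. In BAT the 5 Csn8AKO libraries lie above the 5 Ctrl libraries for Retn and Metrnl and below them for Nampt and Apln, and Lep spreads from 2.79 to 68.2 CPM among the Ctrl libraries.

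Leptin was the most uneven member in BAT. Lep was at 68.2, 28.0, 16.2, 10.0 and 2.79 CPM in Ctrl 1 to 5 and at 39.0, 5.40, 11.2, 5.35 and 10.1 CPM in Csn8AKO 1 to 5. The highest Ctrl library had 24.4 times the lowest, whereas for Adipoq in the same mice that ratio was 1.07. The genotypes overlapped almost fully (log2 change -0.80, SE 0.89, adjusted p = 0.548), and without Ctrl 1 the value was 0.0063 (adjusted p = 0.997). Between 137 and 2638 reads per BAT library lay behind these values. In sWAT the highest over the lowest was 1.77 in Ctrl and 1.81 in Csn8AKO mice.

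The spread of Lep was set beside other genes in the same 10 BAT libraries, which differ in depth and in their share of ribosomal RNA. Deviations of log2 CPM from the genotype means were correlated with those of Lep for 15922 genes with at least 1 CPM on average, and these values are descriptions. Over 10 libraries, the highest of 15922 such values can be large by chance. Jak2, the kinase on the leptin receptor, had the highest r, 0.96 over 10 libraries. Its levels ran only from 29.3 to 38.7 CPM in Ctrl and from 30.9 to 36.6 CPM in Csn8AKO mice. Dtx3l (0.96), Macrod2 (0.95), Lrig1 (0.95), Kank2 (0.94), Slc45a4 (0.94), Serpina3c (0.94) and Mitd1 (0.94) followed. Lrig1, a feedback inhibitor of growth factor receptors, was at 121, 109, 89.9, 98.9 and 71.7 CPM in Ctrl 1 to 5 and at 69.1, 43.5, 51.5, 40.6 and 51.1 CPM in Csn8AKO 1 to 5. Among the members r was 0.72 for Apln, 0.46 for Retn, 0.19 for Nampt and Rbp4, 0.10 for Adipoq and -0.23 for Rarres2, and the remaining members lay between -0.03 and 0.09. The genotypes differed in sign for Rbp4, with 0.70 over the 5 Ctrl and -0.49 over the 5 Csn8AKO libraries, and for Metrnl, with 0.69 and -0.40, as well as for Adipoq, Cfd, Rarres2 and Sfrp5.

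Among the brown and white fat markers, Ucp1, the uncoupling protein of brown fat, had the lowest r with Lep, -0.91 over 10 libraries, -0.94 over the 5 Ctrl and -0.84 over the 5 Csn8AKO libraries. Ucp1 was at 1568, 1939.8, 3238, 2716 and 4439.6 CPM in Ctrl 1 to 5 and at 2412, 5243, 4645, 3845 and 3942 CPM in Csn8AKO 1 to 5. The library with most Lep had the least Ucp1 in each genotype. Kcnk3, a potassium channel of brown adipocytes, had an r of -0.79, Cpt1b, of fatty acid import into mitochondria, of -0.79 and Dio2, the thyroid hormone deiodinase, of -0.78. For Dio2 r was -0.92 over the 5 Ctrl but -0.33 over the 5 Csn8AKO libraries. Among the other brown markers r ran from -0.73 for Elovl3 to 0.06 for Cox7a1, with -0.23 for Cidea and -0.27 for Zic1. The white depot markers did not run together, with an r of 0.68 for Nnat, 0.54 for Mest, 0.0072 for Slc7a10 and 0.0029 for Hoxc8, the last with 0.31 in Ctrl and -0.84 in Csn8AKO libraries. Csn8AKO 1 also had 138 CPM of skeletal muscle markers and 71.7 CPM of white depot markers, but Csn8AKO 5 had more of both, 228 and 82.7 CPM, at 10.1 CPM of Lep. Ribosomal RNA took 10.1% of the counts in Ctrl 1, the library with most Lep, and 15.1% in Csn8AKO 2, which had little. The part of these measures in the spread of Lep was not tested.

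**Figure D5:**
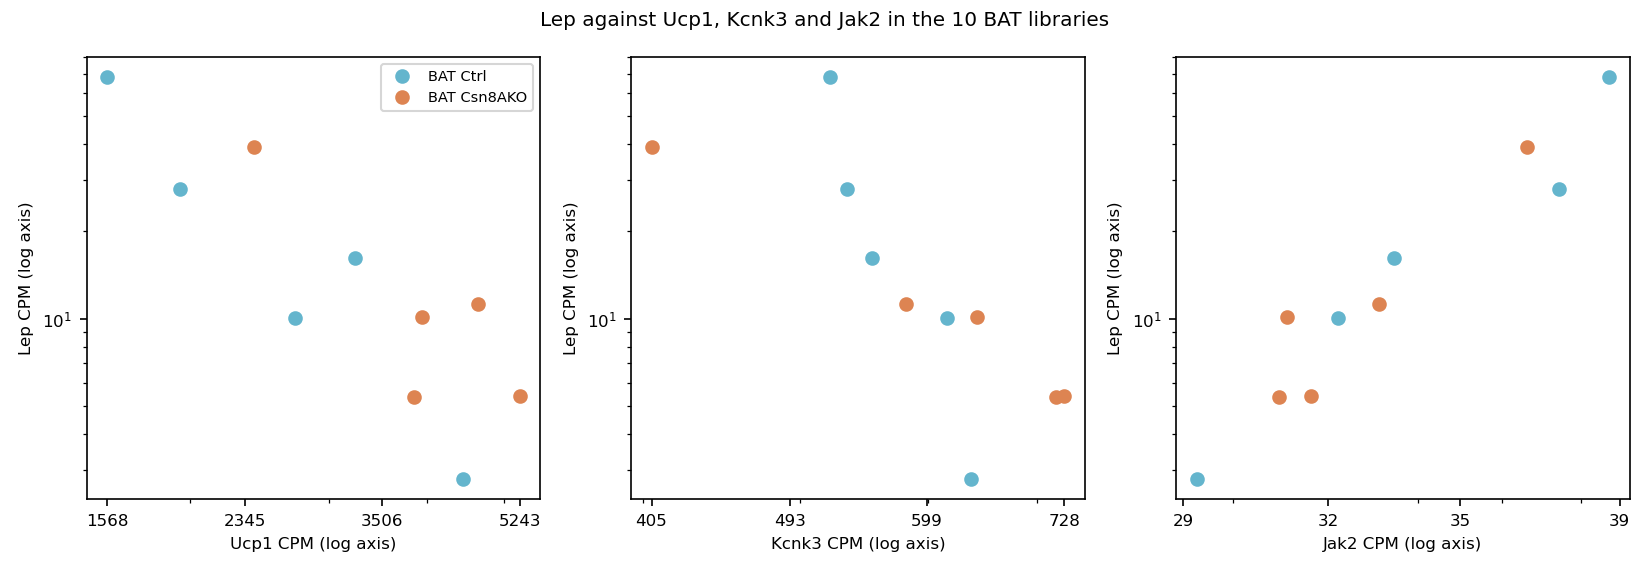
Lep CPM against the CPM of Ucp1, Kcnk3 and Jak2 in the 10 BAT libraries, all on log axes, with 1 point per library coloured by genotype. Lep is lower in libraries with more Ucp1 and Kcnk3 and higher in those with more Jak2, over a range of 2.79 to 68.2 CPM.

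Among 15 genes listed as regulators of adipokine genes, Klf15, a glucocorticoid-induced factor of fat, was lower in sWAT (106 ± 19.4 to 44.5 ± 10.7 CPM, log2 change -1.26, adjusted p = 0.00786) and in BAT (74.7 ± 15.3 to 20.4 ± 11.3 CPM, log2 change -1.88, adjusted p = 0.00301). In sWAT 4 of the 15 were called, all lower, including Prdm16, a factor of beige fat (log2 change -1.37), and the lipogenic factor Srebf1 (-1.39). In BAT 4 were lower and 1 higher, with Cebpa, a C/EBP factor that activates Adipoq and Lep, at 437 ± 64.3 and 225 ± 34.2 CPM (log2 change -0.95, adjusted p = 6.59e-05), Ebf2 lower (-0.58) and Ebf1 higher (0.81). Pparg, the master regulator of adipocytes, passed in neither tissue.

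The list of C1q and TNF related proteins, the family of adiponectin, holds the complement C1q chains, which macrophages make. C1qb rose from 126 ± 23.7 to 248 ± 74.2 CPM in sWAT (log2 change 0.98, adjusted p = 0.0369), as the 1 gene of 9 tested that passed there. In BAT 6 of the 11 genes tested were higher and 1 lower, led by C1qb, C1qc and C1qa at log2 changes of 1.83, 1.66 and 1.49. C1qtnf12, adipolin, an insulin-sensitising hormone of fat, was the 1 that fell, from 55.5 ± 7.26 to 27.6 ± 5.37 CPM (log2 change -1.01, adjusted p = 6.09e-05).

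Other factors secreted in fat set the members in context. Lcn2, lipocalin 2, went from 0.848 ± 0.564 to 479 ± 204 CPM in sWAT (log2 change 9.10, adjusted p = 1.38e-04) and from 0.458 ± 0.0749 to 25.1 ± 11.5 CPM in BAT (log2 change 5.78, adjusted p = 2.81e-06). Ccdc3, an adipocyte-secreted factor, was lower in both tissues (log2 change -1.45 and -1.53), and so was Vegfa (-1.08 and -0.46). Nrg4, a batokine that acts on the liver, fell in sWAT (log2 change -1.37), and Slit2 and Spp1 rose there (2.10 and 2.69). In BAT Hp, haptoglobin, rose (log2 change 1.02), as did Gdf15, a stress-induced hormone (5.67), while Angptl4, an inhibitor of lipoprotein lipase, and Pm20d1, which makes N-acyl amino acids, fell (-1.16 and -1.72). Of the genes tested in this list, 3 were lower and 3 higher of 20 in sWAT, and 4 lower and 13 higher of 22 in BAT.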

How the data were processed

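RNA from sWAT and BAT was depleted of ribosomal RNA, primed with random hexamers and sequenced as paired 150-base reads. The authors aligned the reads with STAR 2.7.9a to the Ensembl release 101 mouse assembly (GRCm38) and counted them per gene with featureCounts. Whether the counting used strand is not given in the sources used here. The deposited files hold a whole-number count, CPM, FPKM and TPM per gene, and of these only the counts were used. A reference table of mouse gene symbols named 55141 of the 55487 gene IDs, and 54870 had the same position in a GENCODE annotation of GRCm38. No pair of the 18 libraries held identical counts.

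Counts were tested with edgeR 4.0.16 in R 4.3.3 (filterByExpr, TMM scaling, robust quasi-likelihood fit, 2-sided, Benjamini-Hochberg adjustment over all genes tested), separately in each tissue, and a gene was called at an adjusted p under 0.05. The interaction was fitted over 18 libraries and the Ctrl libraries of both tissues were fitted against each other. A mean ± SD is over libraries, 1 mouse each. CPM are scaled within each tissue, whereas CPM per kilobase of exon are on 1 scale over all libraries. The comparisons share Ctrl libraries. The study used DESeq2, which is an alternative here.

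Results were recomputed with library size as the only scaling, with RLE factors, with no filter, with DESeq2 1.42.0, with limma 3.58.1 voom with quality weights, leaving out 356 ribosomal RNA genes, all 4 groups in 1 fit, the replicate number as a block and leaving out each library. Leaving out the sWAT libraries with most ribosomal RNA was chosen after seeing the data. The members and lists were chosen with earlier results of these data known. From each list of related genes, up to 3 called genes of smallest adjusted p per direction and tissue were named. The receptors of adiponectin, apelin, resistin and chemerin, and Pparg, Cpt1b and the BAT value of Vegfa, were in part named beyond that rule, after their values were seen. The same holds for Kng2 and Rfc4 and for the white depot markers that did not pass in BAT. For Lep, the 8 genes of highest correlation were named. Of the list genes, 1 had no match in the files. Figures and lists were made with Python 3.11.15, pandas 2.3.3 and numpy 2.4.6. The fits were tried on simulated counts in which 200 genes changed by 2 on the log2 scale. At an adjusted p under 0.05 they recovered 81.5% of these in sWAT, 98% in BAT, 85.5% for the interaction and 96.5% between Ctrl tissues. Of the genes called in the simulated counts, 6.31% to 8.06% were false.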

Additional observations from a re-analysis of the deposited data

Results flagged for a closer look

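In Csn8AKO BAT, replicate 1 had 39.0 CPM of Lep, far above the other 4 libraries at 5.35 to 11.2 CPM. In Ctrl BAT, replicate 4 had 2486 CPM of Cfd, apart from the other 4 libraries at 1370.4 to 1555 CPM. These were 2 of 40 combinations of group and gene examined for a library far from the others, and chance gives about 1 in 20.

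The Csn8AKO change of Retn differed between the tissues, by 3.74 on the log2 scale (SE 0.43, adjusted p = 1.90e-04 in edgeR's interaction test). Retn was higher in Csn8AKO mice in 5 of 5 BAT libraries than in any Ctrl library. The Csn8AKO change of Sfrp5 also differed, by 3.36 (SE 0.48, adjusted p = 7.33e-04), and here 4 of 5 Csn8AKO BAT libraries lay above the Ctrl range while 4 of 4 Csn8AKO sWAT libraries lay below theirs. BAT came from 4-week-old and sWAT from 12-week-old mice, so that tissue and age cannot be told apart.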

How the results depend on the processing

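The 6 members called in BAT, the 2 called for the interaction and the 9 called between Ctrl tissues stayed between 5 and 7, 2 and 3, and 8 and 10 over all alternatives. In sWAT the count of 5 members fell to 0 without the 2 libraries richest in ribosomal RNA, an alternative added after seeing the data that leaves 2 Csn8AKO mice (Cfd -2.01, adjusted p = 0.0541; Nampt -1.21, adjusted p = 0.086). Leaving out 1 library gave 2 to 5 members, with 2 without Csn8AKO 3 and 3 without Ctrl 2, 3 or 4. With the replicate number as a block it was 2, Nampt and Metrnl. Same-numbered libraries correlated from -0.40 to 0.23 in sWAT and from -0.12 to 0.13 in BAT, and 0 of 4 and 2 of 5 matched their own number best. With so few libraries these values cannot decide whether the numbers pair the mice.

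Rarres2 in sWAT changed sign with library size alone (-0.12), no filter (-0.016), the ribosomal RNA libraries left out (-0.073), the block (-0.089) and single libraries left out (-0.22 to 0.23). Lep in BAT ran from -1.63 to 0.0063 over fits without 1 library. In the interaction, Lep was 0.12 and Apln 0.064 with library size alone, Nampt was -0.083 with voom, and without 1 library Lep ran from -1.09 to 0.55, Apln from -0.66 to 0.066, Nampt from -0.13 to 0.27 and Rbp4 from -0.75 to 0.19. None of these was called in any of these fits.

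Over all genes in sWAT, DESeq2 called 1034 lower and 912 higher, voom 1078 and 1077, all 4 groups in 1 fit 1419 and 1044, the block 165 and 134, the fit without the ribosomal RNA libraries 252 and 130, and fits without 1 library 179 to 673 and 147 to 804. For the interaction these were 355 and 737 (DESeq2), 331 and 572 (voom), 89 and 208 (block) and 103 to 291 and 246 to 485 (without 1 library). The cause of these shifts was not tested. Apln in sWAT rests on 32 to 142 reads and Sfrp5 in BAT on 44 to 366 reads per library, which limits both.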
